A study of Mus musculus with 14 samples.

Results

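The 6 spleen libraries are the mouse experiment of a series of 14 RNA sequencing libraries on T cells and TRAIL, a ligand of death receptors whose gene is Tnfsf10. They were taken as all 6 libraries with values in the gene table of the mouse experiment, whatever their group. Total RNA was prepared from spleen of C57BL/6 mice and made into mRNA libraries, and the labels call every library primary CD4 T cells. The Lck-Cre TRAIL group (2 libraries) is labelled as Lck Cre TRAIL-R f/f mice given TRAIL, in which the Lck promoter drives Cre recombinase in the T lineage against a floxed TRAIL receptor gene. The floxed TRAIL group (3 libraries) is labelled as TRAIL-R f/f mice given TRAIL, and the vehicle group (1 library) as TRAIL-R f/f mice given vehicle, although the bracketed name of the vehicle library reads B6_spleen. All 6 therefore carry the floxed receptor gene by their titles. The labels give no age, no dose of TRAIL and no number of animals, do not say whether the mice had experimental autoimmune encephalomyelitis, the disease in the series title, and do not say that replicates were separate animals.

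The run names in the labels place the libraries on 2 sequencing lanes. Lck-Cre TRAIL 2, floxed TRAIL 2 and floxed TRAIL 3 were on lane 4, and Lck-Cre TRAIL 1, floxed TRAIL 1 and vehicle were on lane 2. By their titles, both lanes hold both genotypes of mice given TRAIL, while vehicle exists on lane 2 alone. The labels name each library in brackets in its title and again in its run name, and these names do not all match. Run names carry TRA directly before the word spleen in the 3 lane 4 libraries and in none of lane 2. The bracketed names carry it in those 3 and also in floxed TRAIL 1 of lane 2, which is TRA_spleen in brackets but TRA_R_spleen as a run. Lck-Cre TRAIL 1 is Cre_spleen in both. Groups follow the titles, so whether the lane 2 libraries titled TRAIL came from mice given TRAIL is in doubt, and by the run names that difference and lane cannot be told apart. Where 3 values are listed for a lane, those of lane 4 belong to Lck-Cre TRAIL 2, floxed TRAIL 2 and floxed TRAIL 3, and those of lane 2 to Lck-Cre TRAIL 1, floxed TRAIL 1 and vehicle. No test between groups or lanes was made. A lane difference is lane 4 minus lane 2 in mean log2, and a gene is called separated when the ranges of the 3 libraries of each lane do not overlap.

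The spleen is both a lymphoid organ and a filter of the blood. Its white pulp holds T cells and B cells, its red pulp holds macrophages that take up old red cells and recycle their iron, and in mice it also makes granulocytes and red cells throughout life. RNA from a purified CD4 T cell population carries the T cell receptor complex and Cd4 with little from B cells, granulocytes or red cell precursors, whereas RNA from unseparated spleen carries all of them. Genes marking each lineage were therefore read library by library. In bulk RNA, fewer cells of a type and less RNA per cell cannot be told apart.

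The libraries held 19.2 to 56.9 M reads, recovered from the deposited TPM and gene lengths. TPM is the share of a gene's transcripts among all of its library, corrected for gene length and scaled to the same total in each library. Mitochondrial genes took 3.5 to 4.95% of TPM. Ribosomal protein genes took 6.75 to 11.3%. Xist, the RNA of the inactive X chromosome, lay between 133 and 156 TPM in all 6 libraries, and Ddx3y, Eif2s3y, Kdm5d and Uty were not analysed here. Tnfrsf10b, the mouse TRAIL receptor gene (GRCm38 chromosome 14, 69767472 to 69784411, plus strand), was read as the targeted gene and had 3.5 and 2.04 TPM in Lck-Cre TRAIL 2 and 1 (102 and 139 reads), against 1.64, 1.46 and 2.31 TPM in floxed TRAIL 1, 2 and 3 (65, 55 and 85 reads) and 1.82 TPM in vehicle (169 reads). The Lck-Cre values were thus not below the floxed values. In these mixed libraries that gene total does not check deletion within T cells, and which exons are floxed is not given in the labels. Tnfsf10 lay between 8.41 and 21.4 TPM.

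Over all genes the libraries lay nearer to every library of their own lane than to any of the other lane, including those of their own group. The distance between 2 libraries was taken as the median absolute difference of log2(TPM + 1) over the 14176 genes that averaged 1 TPM or more. The 6 pairs within a lane lay 0.104 to 0.319 apart and the 9 pairs across lanes 0.324 to 0.459 apart. The 2 Lck-Cre TRAIL libraries, one on each lane, lay 0.437 apart, and floxed TRAIL 1 lay 0.368 and 0.444 from floxed TRAIL 2 and 3. When each library was rescaled by a median of ratios, 6 of the 9 pairs across lanes were farther apart than every pair within a lane.

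**Figure D1:**
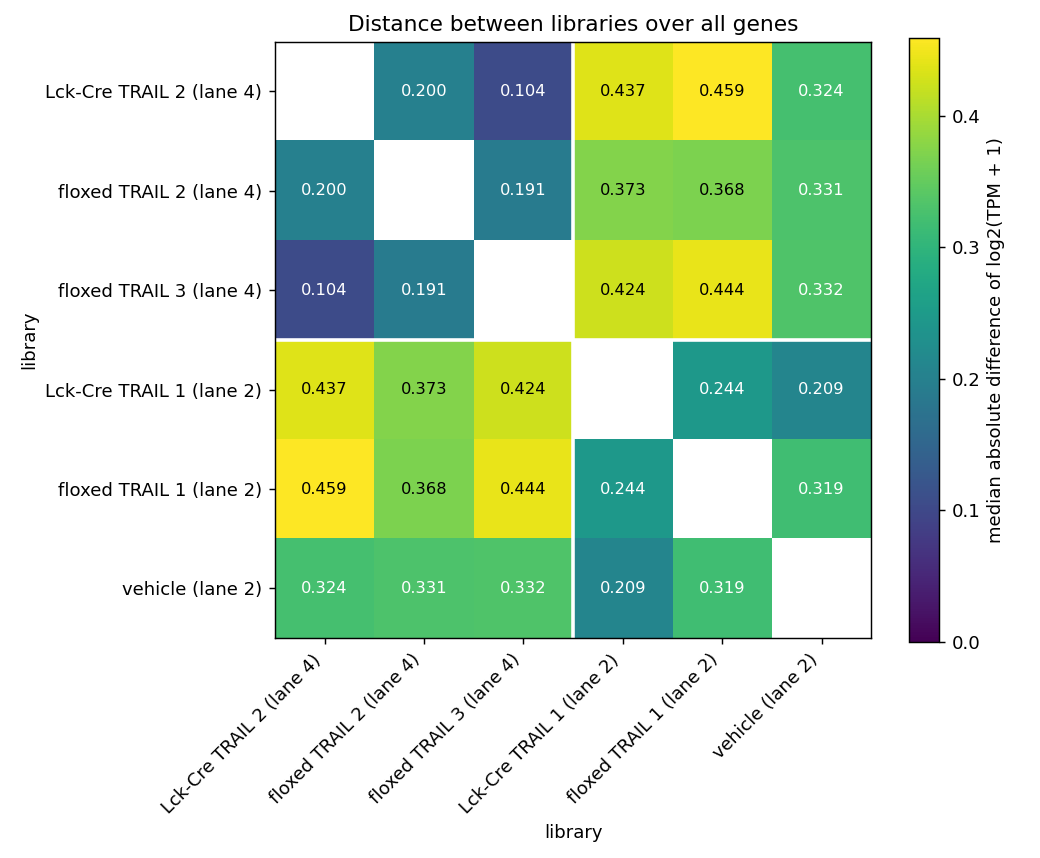
Each square gives the median absolute difference of log2(TPM + 1) between 2 of the 6 libraries, over 14176 genes, and the white lines divide lane 4 from lane 2. The smallest value, 0.104, joins Lck-Cre TRAIL 2 and floxed TRAIL 3, and the pairs across lanes lie between 0.324 and 0.459.

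The nearest pair, Lck-Cre TRAIL 2 and floxed TRAIL 3, carries different genotype labels. It was set apart from all other pairs by its immunoglobulin variable segments, the exons that each B cell clone picks when it builds its antibody, so that a plasma cell response leaves its own set of segments in a mouse. Across 172 variable segments, Pearson's r of log2(TPM + 1), a description across segments that are not independent, was 0.994 between these 2 libraries and 0.767 to 0.837 for the other 14 pairs. Their segments differed by a median of 0.218 on the log2 scale, against 0.624 to 1.54 for the other pairs. As a measure of sampling noise, the chi-square of the reads of a gene between 2 libraries had a median of 1.59 for this pair and of 5.75 to 25.3 for the others, where sampling alone gives 0.455. These chi-squares take each read as a separate molecule. How far separate preparations of 1 RNA exceed that level was not measured, so the chi-squares do not show whether the pair is independent. They also depend on the number of reads, which differed between libraries. The labels name different genotypes, the pair is listed as 2 libraries as labelled, and the cause of the near identity was not tested. Correlations of marker genes across the 6 libraries are not given, since the libraries fall into 2 lanes and these 2 may not be independent. Several lane differences and ranges of list sums are also given without the pair, which leaves floxed TRAIL 2 as the one library of lane 4. Counts of separated genes and orders of libraries were not recounted without the pair.

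The most abundant genes were those of neutrophils, antibody, mitochondria and the general cell machinery. By mean TPM the 10 highest were S100a9, mt-Co1, Eef1a1, S100a8, Igkc, Actb, mt-Cytb, mt-Nd1, Ngp and Ltf. Only 8 genes were among the 20 highest of all 6 libraries, namely Actb, Eef1a1, Igkc, Ngp, S100a9, mt-Co1, mt-Cytb and mt-Nd1. S100a9, a subunit of calprotectin, the calcium-binding protein that fills the neutrophil cytosol, was the highest gene of the 3 lane 2 libraries. The mitochondrial cytochrome oxidase gene mt-Co1 was the highest of the 3 lane 4 libraries. Genes of the neutrophil list filled 2, 4 and 3 of the 20 highest places in lane 4 and 7, 7 and 7 in lane 2. Gm23935, listed as a miRNA of 57 bases, had 6419, 2059 and 1947 TPM in lane 4, against 4649, 1313 and 1697 TPM in lane 2. CT010467.1 had 3453, 1120 and 1322 TPM in lane 4, against 2477, 787 and 1146 TPM in lane 2. Both were highest in the Lck-Cre TRAIL libraries, and so differed between Lck-Cre TRAIL 2 and floxed TRAIL 3. The cause was not tested.

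S100a9 had 7306, 11959 and 7320 TPM in lane 4, against 47632, 38817 and 34952 TPM in lane 2. Every lane 2 library was thus above every lane 4 library, while Eef1a1, which encodes a translation elongation factor, overlapped between lanes, with 14142, 12125 and 14639 TPM in lane 4 and 10269, 10702 and 13712 TPM in lane 2. Igkc, the constant region of the kappa antibody chain, had 10988, 13134 and 12472 TPM in lane 4, against 15951, 13408 and 7612 TPM in lane 2, with vehicle the lowest library. The 10 highest genes of a library together took 9.2, 8.5 and 9.39% of TPM in lane 4 and 15.4, 14.3 and 13.9% in lane 2. Because TPM is a share of the whole, a larger share for the neutrophil genes leaves less for all other genes of that library.

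Of the 8 lineage marker genes, 4 were separated by lane, namely Cd79a, Lyz2, S100a8 and Hbb-bs, and 4 overlapped, namely Cd3e, Cd4, Cd8a and Mpo. Over the same 14176 genes, 46.8% were separated, 36.0% with lane 4 above and 10.7% with lane 4 below. Rescaled by a median of ratios, 21.1% had lane 4 above and 20.3% below. The median gene lay 0.22 higher in lane 4 on the log2 scale, and that shift was larger in long genes: 0.05 in the shortest of 5 length classes and 0.3 in the longest.

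**Figure D2:**
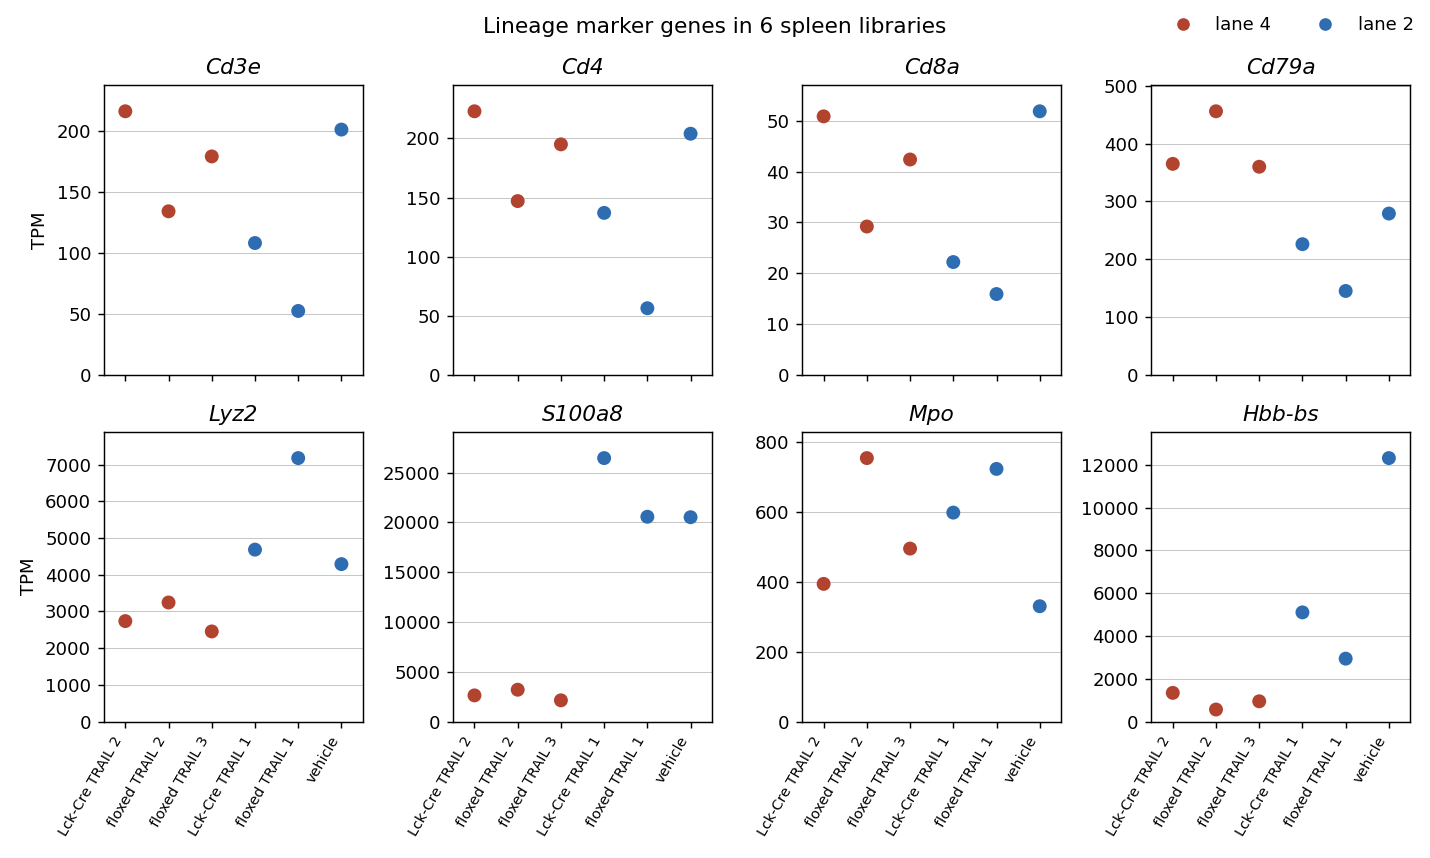
TPM of the 8 lineage marker genes in the 6 libraries, 1 point a library, with lane 4 in red and lane 2 in blue and each axis starting at 0. S100a8 shows the widest gap between lanes, with 2133 to 3199 TPM on lane 4 and 20529 to 26468 TPM on lane 2, while Cd3e, Cd4, Cd8a and Mpo overlap between lanes.

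Cd3e, a signalling chain of the T cell receptor complex (GRCm38 chromosome 9, 44998740 to 45009627, minus strand), had 216, 134 and 179 TPM in lane 4, against 108, 52.3 and 201 TPM in lane 2. Cd4, the co-receptor of helper T cells (chromosome 6, 124864692 to 124888221, minus strand), had 223, 147 and 195 TPM in lane 4, against 137, 56.3 and 204 TPM in lane 2. Cd8a, the co-receptor of cytotoxic T cells (chromosome 6, 71373427 to 71379173, plus strand), had 50.9, 29.2 and 42.4 TPM in lane 4, against 22.2, 15.9 and 51.9 TPM in lane 2. Floxed TRAIL 1 was the lowest library for all 3 genes, Lck-Cre TRAIL 1 was next, and Lck-Cre TRAIL 2 and vehicle were the highest pair. The 6 libraries stood in the same order for Cd3e and Cd4. The ratio of Cd4 to Cd3e stayed between 1.02 and 1.27, a 1.25-fold range, although Cd3e itself spanned 4.13-fold.

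The T cell list was a single block. Its 19 genes summed to 3603, 2176 and 3030 TPM in lane 4, against 2243, 902 and 3796 TPM in lane 2. All 19 were lowest in floxed TRAIL 1, 10 were highest in Lck-Cre TRAIL 2 and 9 in vehicle. Separated by lane were 0, beside 46.8% of all genes in either direction. The log2 of the highest over the lowest sum was 2.07, and 0.8 without floxed TRAIL 1. Thy1, a surface glycoprotein of T cells, was the most abundant member and ranged from 179 TPM in floxed TRAIL 1 to 652 TPM in vehicle. Tcf7, a transcription factor of resting T cells, had 485, 243 and 382 TPM in lane 4, against 244, 77.5 and 426 TPM in lane 2. Trbc2, a constant region of the T cell receptor beta chain whose near copy Trbc1 makes its reads uncertain, ranged from 61.9 TPM in floxed TRAIL 1 to 382 TPM in vehicle. Lef1, the partner of Tcf7, had 16.0 TPM in floxed TRAIL 1 and 98.8 TPM in vehicle.

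Helper and cytotoxic genes followed with exceptions. In the CD4 list, 7 of 8 genes were lowest in floxed TRAIL 1. The exception, Zbtb7b, which encodes the factor that commits T cells to the helper fate, stayed between 116 and 144 TPM. Separated were 3 of 8, Foxp3, Il2ra and Ctla4, all with lane 4 above, beside 36.0% of all genes, and 2 of 8 after rescaling, beside 21.1%. Ikzf2, which like Foxp3 is a factor of regulatory T cells, overlapped, with 27.6 TPM in floxed TRAIL 2 and 28.9 TPM in vehicle. Foxp3 had 25.2, 18.2 and 22.0 TPM in lane 4, against 10.5, 6.2 and 16.7 TPM in lane 2. The list of CD8 T and NK cell genes summed to 637, 560 and 569 TPM in lane 4, against 387, 352 and 574 TPM in lane 2. Its 3 most abundant members were Ccl5, a chemokine of cytotoxic cells (64.9 to 115 TPM), Gzma, a granule protease (51.9 to 120 TPM), and Nkg7, a granule membrane protein (61.3 to 85.8 TPM). Of the 12 genes of that list, 8 were lowest in floxed TRAIL 1. Gzma, Gzmb and Ncr1 were lowest in Lck-Cre TRAIL 1, and Nkg7 in vehicle. Gzmb was highest in floxed TRAIL 2, at 71.3 TPM. Separated with lane 4 above were 3 of 12, beside 36.0% of all genes, and 2 of 12 after rescaling, beside 21.1%. Cd4 exceeded Cd8a 3.53- to 6.17-fold in TPM.

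Cd79a, the signalling chain of the B cell receptor (chromosome 7, 24897381 to 24902197, plus strand), had 365, 456 and 360 TPM in lane 4, against 226, 145 and 279 TPM in lane 2. It was above Cd3e in every library, by 1.69-, 3.39- and 2.01-fold in lane 4 and by 2.1-, 2.77- and 1.39-fold in lane 2. The 17 genes of the B cell list summed to 6791, 7632 and 6901 TPM in lane 4, against 5475, 3631 and 5179 TPM in lane 2, and Ighm, the heavy chain of IgM, made 54.9% of that sum. Separated members numbered 10 of 17, all with lane 4 above, beside 36.0% of all genes, and 5 of 17 after that rescaling, beside 21.1%. Floxed TRAIL 2 was the highest library for 13 of the 17. Pax5, the factor that maintains B cell identity, had 397, 494 and 358 TPM in lane 4, against 207, 153 and 338 TPM in lane 2. Ighd, the heavy chain of IgD on mature naive B cells, had 416, 413 and 386 TPM in lane 4, against 283, 155 and 536 TPM in lane 2. Its order differed from that of Cd79a, with vehicle at the top.

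MHC class II genes, which present antigen on B cells, dendritic cells and macrophages, summed to 6155, 7605 and 5767 TPM in lane 4, against 2719, 2715 and 4487 TPM in lane 2. Of 7 genes, 5 were separated with lane 4 above, beside 36.0% of all genes, and 4 after rescaling, beside 21.1%. Cd74, the invariant chain gene and 1 of the 5, had 2632, 3238 and 2485 TPM in lane 4, against 1013, 1048 and 1707 TPM in lane 2. H2-Ab1, a class II beta chain, had 1701, 2217 and 1590 TPM in lane 4, against 687, 710 and 1169 TPM in lane 2. H2-Eb1, another class II beta chain of the list, lay between 358 and 951 TPM. Precursor B cell genes were near the floor. Of 6 genes 3 were analysed; Dntt, the enzyme that adds bases at antigen receptor joints, was the most abundant at 1.39 to 6.39 TPM, and Rag1, a subunit of the recombinase that joins them, was between 0.00418 and 0.269 TPM.

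The plasma cell list took a large share of RNA, mainly through its antibody genes, and these differed between libraries by antibody class. Of its other members, Sdc1 lay between 8.7 and 28.2 TPM and Xbp1 between 174 and 357 TPM. The 13 genes summed to 19439, 24257 and 22478 TPM in lane 4, against 26955, 25140 and 12476 TPM in lane 2, with vehicle lowest, and Igkc made 56.3% of the sum. Reads of the heavy chain constant genes are uncertain because these genes are close copies of each other. Ighg1, the IgG1 heavy chain, had 253, 2953 and 317 TPM in lane 4, against 3179, 3596 and 520 TPM in lane 2. Floxed TRAIL 2, Lck-Cre TRAIL 1 and floxed TRAIL 1 were thus high, across both lanes and both genotypes. Ighg2b, the IgG2b heavy chain, was high in the same 3 libraries, with 303, 1581 and 369 TPM in lane 4 and 2391, 3391 and 380 TPM in lane 2. Ighg2c, the IgG2c heavy chain, repeated the split, with 394, 2241 and 456 TPM in lane 4, against 1818, 2369 and 591 TPM in lane 2.

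Igha, the heavy chain of the mucosal antibody IgA, was separated by lane. It had 5308, 2310 and 6387 TPM in lane 4, against 1551, 908 and 1980 TPM in lane 2. The ratio of Igha to Ighm was 1.44 and 1.6 in Lck-Cre TRAIL 2 and floxed TRAIL 3, the pair with near-identical variable segments, against 0.417 to 0.884 in the other 4 libraries. Jchain, which joins IgA and IgM into polymers, lay between 907 and 1947 TPM. Mzb1, a chaperone of antibody secretion, lay between 9.7 and 22.1 TPM.

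S100a8, the other calprotectin subunit (chromosome 3, 90668978 to 90670035, plus strand), had 2628, 3199 and 2133 TPM in lane 4, against 26468, 20574 and 20529 TPM in lane 2, a lane difference of -3.09 on the log2 scale, the widest of the 8 markers. Hbb-bs had the widest range over libraries. The 17 neutrophil genes together summed to 19949, 30031 and 20393 TPM in lane 4, against 113534, 97306 and 82763 TPM in lane 2. Their lane 2 mean was 4.17 times the lane 4 mean, and the lane difference of the log2 sums was -2.08. Without Lck-Cre TRAIL 2 and floxed TRAIL 3 it was -1.69, with floxed TRAIL 2 below each lane 2 library. S100a9 made 40.7% of the sum. Separated members numbered 13 of 17, all with lane 4 below, beside 10.7% of all genes; 13 were so after rescaling, beside 20.3%, and the median member differed by -1.28.

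**Figure D3:**
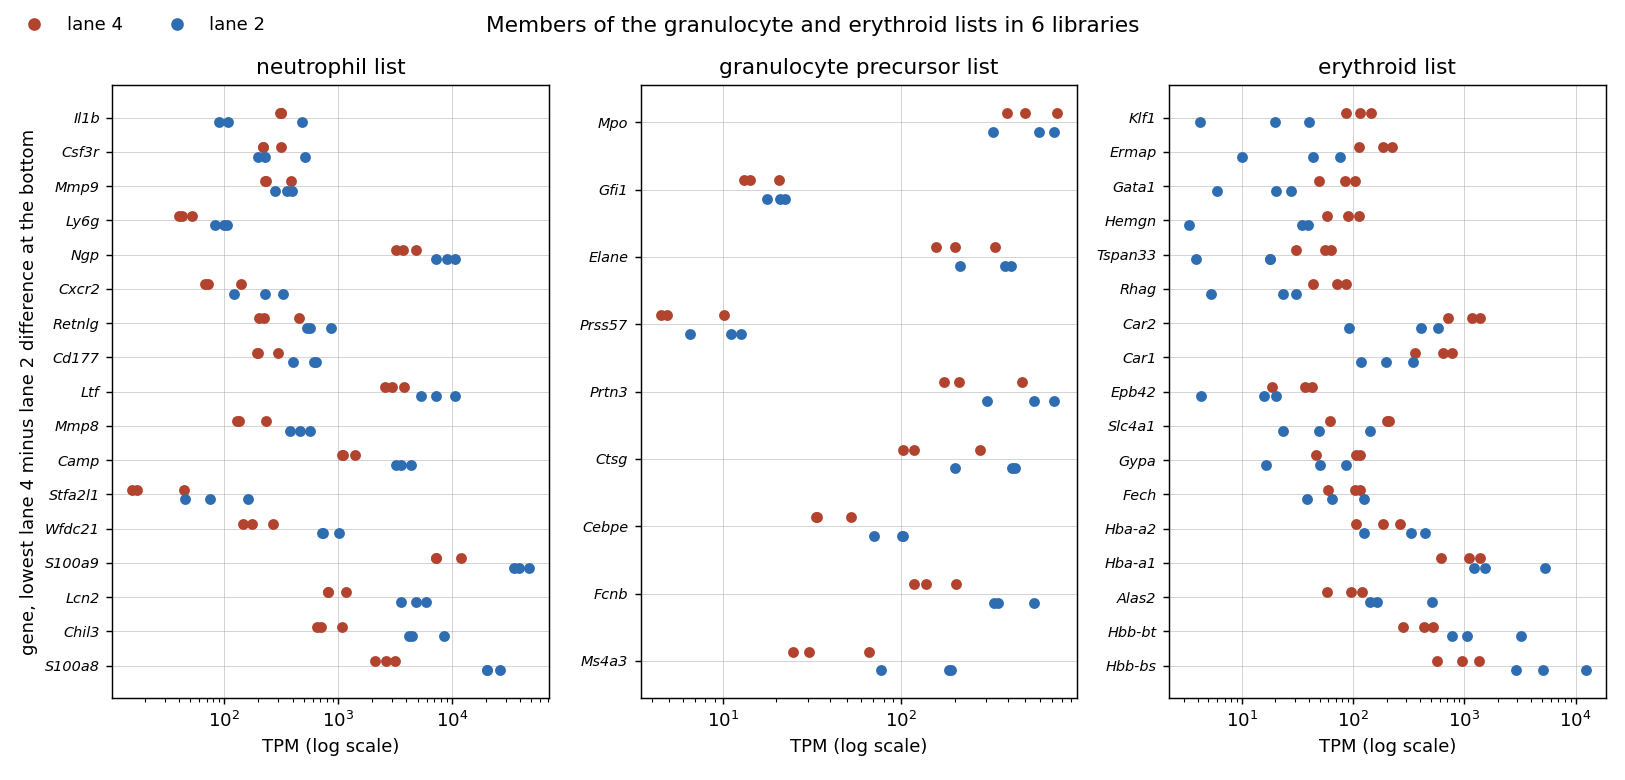
TPM of the analysed members of 3 lists on a log scale, 1 point a library, lane 4 in red above lane 2 in blue for each gene. Of the neutrophil genes 13 of 17 lie wholly higher on lane 2, Mpo overlaps between lanes, and the erythroid list runs from Hbb-bs, lower on lane 4, to Klf1, higher on lane 4.

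Within the neutrophil list S100a8, Chil3, Lcn2 and S100a9 had the largest lane differences, from -3.09 to -2.22. Lcn2 encodes a protein that withholds iron from bacteria. Ngp, a protein of the secondary granules, had 3265, 4855 and 3731 TPM in lane 4, against 9048, 10690 and 7270 TPM in lane 2. Ltf, lactoferrin, had 2585, 3819 and 2991 TPM in lane 4, against 7274, 10754 and 5396 TPM in lane 2. Chil3, a chitinase-like secreted protein, had 654, 1093 and 716 TPM in lane 4, against 8612, 4199 and 4461 TPM in lane 2. Each was above its lane 4 range in all 3 lane 2 libraries, and so was Ly6g, the surface antigen that defines mouse neutrophils, with at most 52.5 TPM in lane 4, against 82.6, 107 and 99.5 TPM in lane 2. Of the 4 members that overlapped, Csf3r encodes the receptor for the growth factor G-CSF, Cxcr2 a chemokine receptor, and Mmp9 a protease of the tertiary granules. Il1b, the inflammatory cytokine, departed most, with 307, 313 and 313 TPM in lane 4, against 91.0, 482 and 108 TPM in lane 2.

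Mpo, the myeloperoxidase of primary granules, made in promyelocytes (chromosome 11, 87793581 to 87804413, plus strand), had 394, 754 and 495 TPM in lane 4, against 598, 723 and 330 TPM in lane 2. The lanes overlapped, floxed TRAIL 2 was the highest library and vehicle the lowest. The 9 genes summed to 1026, 2203 and 1248 TPM in lane 4, against 2654, 3157 and 1552 TPM in lane 2. Prtn3, the protease proteinase 3, had 175, 479 and 212 TPM in lane 4, against 555, 720 and 303 TPM in lane 2, and Elane, neutrophil elastase (chromosome 10, 79886247 to 79888215, plus strand), lay between 157 and 416 TPM. Separated were 3 of 9, Ms4a3, Cebpe and Fcnb, all with lane 4 below, beside 10.7% of all genes, and 3 of 9 after rescaling, beside 20.3%. The lane difference of the sum was -0.74, and -0.09 without Lck-Cre TRAIL 2 and floxed TRAIL 3. The ratio of the neutrophil to the precursor sum was 19.4, 13.6 and 16.3 in lane 4, against 42.8, 30.8 and 53.3 in lane 2, and that of S100a8 to Mpo was 4.24 to 6.66 in lane 4 and 28.4 to 62.2 in lane 2.

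Monocyte and macrophage genes gave no single direction. Lyz2, the lysozyme of monocytes, macrophages and neutrophils (chromosome 10, 117277331 to 117282321, minus strand), had 2738, 3245 and 2456 TPM in lane 4, against 4686, 7181 and 4291 TPM in lane 2. It made 68.9% of the sum of the 15 genes, and that sum was lower in lane 4 by the log2 difference of -0.66, while the median of the members' own differences was 0.32. Without Lyz2 the sum differed by -0.13, and the median level over members, taken in each library on log2(TPM + 1), by -0.24. Separated members of the 15 were 2 with lane 4 above and 3 below, beside 36.0% and 10.7% of all genes. After rescaling they were 2 and 4, beside 21.1% and 20.3%. Ctss, a lysosomal protease, lay between 427 and 754 TPM, and Ly6c2, a surface antigen of inflammatory monocytes, between 295 and 767 TPM. Csf1r, the receptor that macrophages need to survive, had 181, 118 and 189 TPM in lane 4, against 70.9, 144 and 64.1 TPM in lane 2.

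The 11 red pulp macrophage genes summed to 1813, 1076 and 1775 TPM in lane 4, against 1000, 996 and 815 TPM in lane 2, and 6 of 11 were separated with lane 4 above, beside 36.0% of all genes, and 4 of 11 after rescaling, beside 21.1%. The difference rested on the near-identical pair: it was 0.7 with all 6 libraries and 0.21 without Lck-Cre TRAIL 2 and floxed TRAIL 3. Hmox1, which breaks down haem, had 362, 185 and 349 TPM in lane 4, against 222, 217 and 205 TPM in lane 2. Slc40a1, the iron exporter, lay between 121 and 255 TPM, and Vcam1, an adhesion molecule of these macrophages, between 96.2 and 236 TPM. Marco, a scavenger receptor of marginal zone macrophages, stood out in floxed TRAIL 2, with 14.6, 90.7 and 12.4 TPM in lane 4, against 4.15, 6.23 and 9.17 TPM in lane 2.

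Dendritic cell genes were rare throughout. The 8 genes summed to 97.8, 71.1 and 108 TPM in lane 4, against 29.6, 54.7 and 57.3 TPM in lane 2. Itgax, the CD11c integrin, had 36.7, 32.9 and 37.7 TPM in lane 4, against 9.31, 22.9 and 20.3 TPM in lane 2. Genes of mast cells, basophils and eosinophils summed to 289, 349 and 331 TPM in lane 4, against 430, 611 and 275 TPM in lane 2. The most abundant, Hdc, the enzyme that makes histamine, had 55.2, 113 and 63.9 TPM in lane 4 and 171, 272 and 96.1 TPM in lane 2. Members went both ways. Lane 4 was wholly above in 1 of the 10 genes, Epx, and wholly below in 3, Cpa3, Mcpt8 and Ms4a2. Over all genes these shares were 36.0% and 10.7%. After rescaling the counts were 0 and 5, beside 21.1% and 20.3%. Epx had 10.4, 13.1 and 16.2 TPM in lane 4, against 3.89, 9.51 and 1.91 TPM in lane 2.

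Haemoglobin and red cell precursor genes split in opposite directions. Hbb-bs, an adult beta globin (chromosome 7, 103826534 to 103828096, minus strand), had 1341, 563 and 947 TPM in lane 4, against 5104, 2941 and 12317 TPM in lane 2. Reads of Hbb-bs and its near copy Hbb-bt, and of Hba-a1 and Hba-a2, cannot be assigned with certainty. Hbb-bt had 524, 283 and 433 TPM in lane 4, against 1064, 772 and 3242 TPM in lane 2. Hba-a1, an alpha globin, was also highest in vehicle, at 5292 TPM, but overlapped between lanes. Alas2, the first enzyme of haem synthesis in red cells, had 119, 58.8 and 96.5 TPM in lane 4, against 143, 163 and 517 TPM in lane 2.

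The regulators and membrane genes of red cell precursors were higher on lane 4. Klf1, the master factor of red cell formation, had 115, 85.8 and 145 TPM in lane 4, against 4.16, 39.8 and 19.7 TPM in lane 2. Gata1, which acts with it, had 84.6, 49.6 and 103 TPM in lane 4, against 6.02, 27.8 and 20.2 TPM in lane 2. Car2, a carbonic anhydrase, had 1169, 708 and 1372 TPM in lane 4, against 91.1, 581 and 409 TPM in lane 2. Lck-Cre TRAIL 1 was the lowest library for all 3, although its Hbb-bs was above every lane 4 value. Of the 17 erythroid genes analysed, 8 were separated with lane 4 above and 3 with lane 4 below. Over all genes these shares were 36.0% and 10.7%. The sum was lower in lane 4, by the log2 difference of -1.11, while the median member was higher there by 1.36. Hbb-bs made 43.1% of the sum, and without it the difference was -0.29. It was -0.57 without vehicle and -1.74 without Lck-Cre TRAIL 2 and floxed TRAIL 3. The log2 of the highest over the lowest sum was 2.82, and 1.35 without vehicle.

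Hbb-bs and the T cell genes stood in one order within each lane. In lane 4 it ran from Lck-Cre TRAIL 2 over floxed TRAIL 3 to floxed TRAIL 2, and in lane 2 from vehicle over Lck-Cre TRAIL 1 to floxed TRAIL 1. The ratio of Hbb-bs to Cd3e was 4.19 to 6.21 in lane 4 and 47.4 to 61.3 in lane 2. Of the 28 pairs among the 8 marker genes, 6 had the same order within both lanes, and these were the pairs among Cd3e, Cd4, Cd8a and Hbb-bs. Another 4 pairs had opposite orders within both lanes. These are orders of 3 libraries a lane and carry no test.

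**Figure D4:**
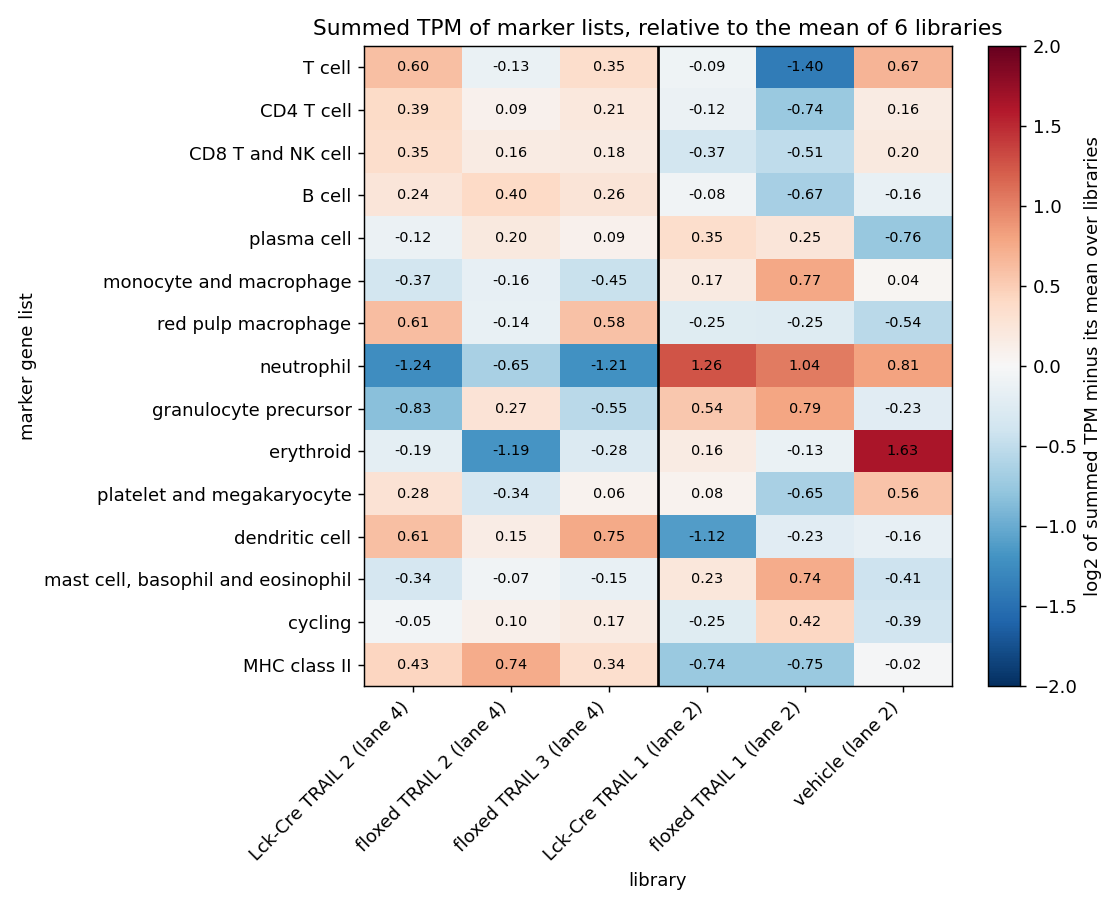
Each square gives the log2 of the summed TPM of a marker gene list in 1 library minus the mean over the 6 libraries, red where higher and blue where lower, with the black line between lane 4 and lane 2. The neutrophil row runs from -1.24 in Lck-Cre TRAIL 2 to its maximum in Lck-Cre TRAIL 1, and the T cell row has its minimum, -1.4, in floxed TRAIL 1.

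Platelet genes did not separate by lane: 0 of 12 did, beside 46.8% of all genes in either direction. Their sum was 143, 92.9 and 123 TPM in lane 4, against 124, 75.1 and 174 TPM in lane 2. The lane difference of that sum was 0.01, and -0.34 without Lck-Cre TRAIL 2 and floxed TRAIL 3. Itgb3, an integrin chain of platelets, was the most abundant with at most 26.4 TPM. Cycling genes summed to 2219, 2468 and 2577 TPM in lane 4, against 1935, 3070 and 1753 TPM in lane 2. Mki67, a nuclear protein of dividing cells, was highest in floxed TRAIL 1, with 230, 307 and 293 TPM in lane 4, against 304, 478 and 258 TPM in lane 2. Pcna, the clamp of DNA replication, lay between 353 and 559 TPM.

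Markers of connective tissue, vessels and pancreas, which lies beside the spleen, were near the floor with 1 exception. Of the 14 stroma and endothelium genes 11 were analysed. Stab2, a scavenger receptor of sinus endothelium, was the most abundant at 2.7 to 7.85 TPM, and the collagen gene Col1a1 lay between 0.357 and 0.577 TPM. Of 12 pancreas genes 2 were analysed. Prss2, a trypsinogen, lay between 0.0854 and 0.948 TPM, while Cela1, an elastase, had 54.9, 17.4 and 52.7 TPM in lane 4, against 12.2, 25.6 and 19.3 TPM in lane 2.

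The labelled cell type does not describe these values. Among the culture libraries labelled CD4 T cells and held in medium, Cd3e was 541 and 514 TPM and S100a8 58.3 and 67.7 TPM. Hbb-bs was 18.9 and 20.4 TPM there and Mpo 22.8 and 23.8 TPM, but Cd79a was 249 and 254 TPM, within the range of the spleen libraries. The labels of those libraries name lymph node as the tissue, while other text of the series names spleen. They were on another sequencing lane and were normalized in a separate table. The levels therefore stand side by side with no test, and tissue, lane and culture cannot be told apart in them. With S100a8 above Cd3e and Cd79a above Cd3e in every library, the 6 libraries are described here as spleen RNA.

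Among the 9401 genes that averaged 10 TPM or more, the widest ranges over the 6 libraries were those of a pair of heat shock genes. Over these 9401 genes the highest library exceeded the lowest by a median of 1.63-fold. The pair, Hspa1a and Hspa1b, encodes the inducible heat shock protein HSP70, a chaperone made within minutes to hours of heat or protein damage. Heat shock genes are switched on by the factor HSF1, which binds repeats of the letters GAA and their inverse TTC. These near copies had the widest ranges of the 9401 genes, so the 250 bases before the start of each are shown. They are from RefSeq on GRCm38.p6, chr17:34972157-34972406 (minus strand) for Hspa1a and chr17:34959239-34959488 (minus strand) for Hspa1b, with the match to GAANNTTC in capitals.
Hspa1a: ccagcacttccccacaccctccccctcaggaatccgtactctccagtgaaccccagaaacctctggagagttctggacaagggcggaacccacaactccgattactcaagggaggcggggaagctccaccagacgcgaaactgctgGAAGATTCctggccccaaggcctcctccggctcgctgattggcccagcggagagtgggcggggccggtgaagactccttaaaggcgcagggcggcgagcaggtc
Hspa1b: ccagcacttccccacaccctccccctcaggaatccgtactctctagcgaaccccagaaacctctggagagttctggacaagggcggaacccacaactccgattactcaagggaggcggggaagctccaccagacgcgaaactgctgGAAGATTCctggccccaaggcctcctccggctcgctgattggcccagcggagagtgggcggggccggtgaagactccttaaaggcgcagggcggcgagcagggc
The windows were identical at 247 of 250 positions. They lie before the start, so this does not show whether reads of the 2 genes can be told apart. Each held 1 match to GAANNTTC, a pattern that reads the same on both strands, at bases -104 to -97 from the start. Of 32851 RefSeq windows of the same 250 bases before a gene, 6.69% hold the pattern, and a match is a description of the letters alone.

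Hspa1a had 244, 148 and 239 TPM in lane 4 (8233, 6441 and 10173 reads), against 1.05, 5.01 and 0.726 TPM in lane 2 (83, 229 and 78 reads). The highest library exceeded the lowest 336-fold. Hspa1b had 497, 321 and 479 TPM in lane 4, against 2.37, 12.0 and 1.6 TPM in lane 2, a range of 311-fold. In both genes every lane 4 library was above every lane 2 library, and floxed TRAIL 1 was the highest of lane 2 in both. A list of 12 heat shock genes, drawn up after these values were seen, had 11 separated with lane 4 above, beside 36.0% of all genes, and a list of 10 immediate early genes, drawn up in the same way, had 10 of 10. After rescaling these were 9 of 12 and 8 of 10, beside 21.1%. Since both lists were chosen for these values, the counts support nothing further. Fosb, a subunit of the early transcription factor AP-1, had 131, 143 and 111 TPM in lane 4, against 10.4, 11.4 and 4.17 TPM in lane 2. Hsp90ab1, a constitutive chaperone, had 2913, 3981 and 2998 TPM in lane 4, against 1144, 1547 and 1348 TPM in lane 2. The part of lane, tissue handling and treatment in these levels was not tested.

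**Figure D5:**
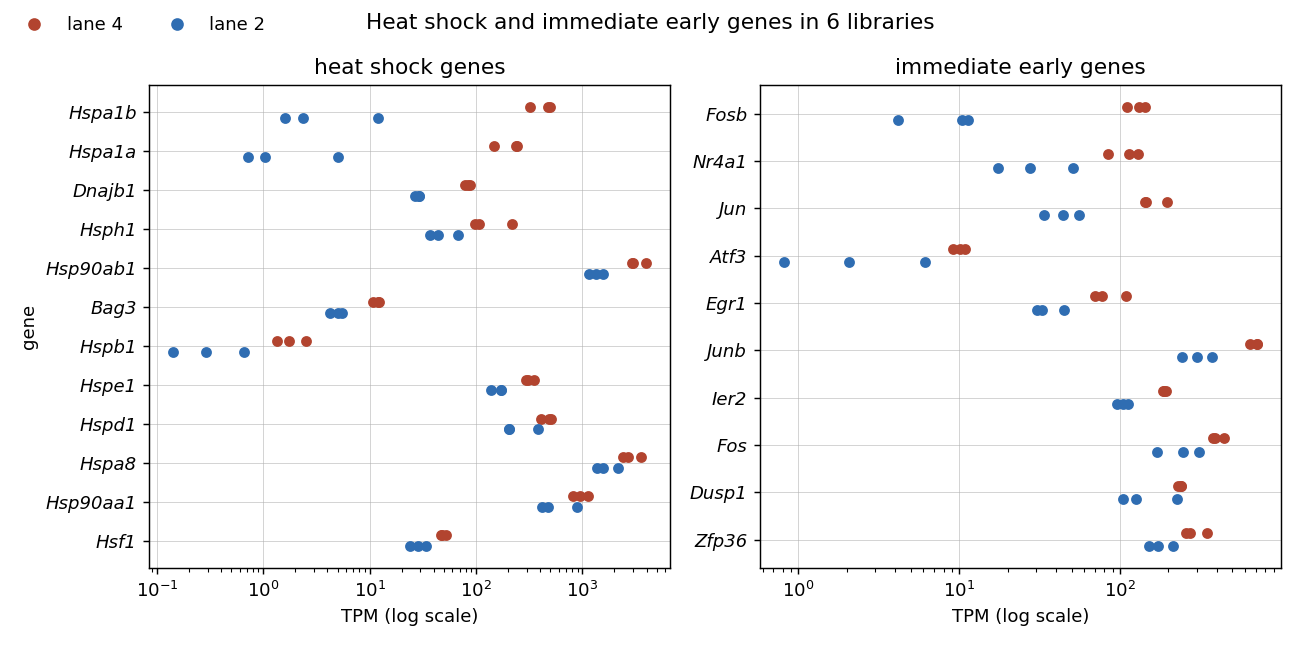
TPM of 12 heat shock and 10 immediate early genes on a log scale, 1 point a library, lane 4 in red above lane 2 in blue for each gene. Hspa1b and Hspa1a show the widest gaps, and Hsp90aa1 is the one heat shock gene whose lanes overlap.

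Among the other genes of the 15 with the widest range were 5 antibody segments, which differed library by library: Ighv7-1, a heavy chain segment, had 194, 746 and 245 TPM in lane 4, against 28.7, 6.97 and 30.3 TPM in lane 2, and Ighv1-11 reached 108 TPM in Lck-Cre TRAIL 1 and 2.03 TPM in floxed TRAIL 1. Ighv7-4, Igkv4-51 and Igkv4-62 were the further segments, and all 3 were lowest in vehicle, at 0.208, 0.981 and 1.17 TPM. The stefin genes Stfa2 and Cstdc5, inhibitors of cysteine proteases from a family of close copies, were highest in Lck-Cre TRAIL 1, at 46.7 and 66.4 TPM. Trnp1, a nuclear protein, had 1.64, 0.7 and 1.43 TPM in lane 4, against 33.1, 1.81 and 45.1 TPM in lane 2. Dmtn, which encodes the red cell membrane protein dematin, had 21.5, 8.5 and 26.7 TPM in lane 4, against 0.521, 5.81 and 7.07 TPM in lane 2. Smim1, the carrier of the Vel blood group in humans, Abcg4, a lipid transporter, Btnl10, of the butyrophilin family, and Eps8l1 were, with Dmtn, lowest in Lck-Cre TRAIL 1, the library lowest for Klf1.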

How the data were processed

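RNA sequencing libraries of mouse spleen were analysed from the gene table of the mouse experiment. The values the authors deposited were read as TPM: the file headers name the libraries and not the unit, but each column has the same fixed sum, that of TPM, and the headers of the separate culture table name TPM. Per the submitters' processing notes, the build was GRCm38.p6, and the tools, given without their roles, included StringTie 2.1.4 and HISAT2 2.1.0, besides Trimmomatic 0.36 and SAMtools 1.2. Whether counting used strand is not given in the sources used here. The table lists 18855 genes, none at 0 in any library, so genes without reads in some library may have been left out.

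Reads were recovered as TPM multiplied by gene length over the smallest step of each library. Coordinates came from GENCODE M21 by gene identifier (99.8% found). Sums of TPM over 18 marker lists (225 genes, 208 listed) were compared by library, and lane differences are on the log2 of sums or, for single genes, on log2(TPM + 1). No test was made. The steps were tested on simulated data, with python 3.11.15, numpy 2.4.6 and pandas 2.3.3. The members and lists were chosen with earlier results of these data known. Named are the 8 marker genes, the most abundant genes, for each list the most abundant members with defining ones, the 15 genes of widest range among those with a mean TPM of at least 10, and genes checking label and sex. A few members were added after their values were seen because they depart from their list. The planned correlations between markers were replaced by the order of libraries within lanes. Alternatives were other scalings, fewer members, other sums and leaving out libraries.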

Additional observations from a re-analysis of the deposited data

How the results depend on the processing

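No paired analysis was possible because no group test was made. A value is treated here as moved when it changed by more than 1 SD of its log2 sums, the smaller of the pooled SDs within groups and within lanes. Of the most abundant genes, 8 of the 20 highest were shared by all 6 libraries, 24 of the 50 highest, and 8 to 9 when 1 library was left out. The pairs of markers in 1 order within both lanes numbered 6, and 7 to 10 when 1 library was left out, where an order of fewer libraries is met more easily. All 9 pairs across lanes lay farther apart than every pair within a lane, 8 with a pseudocount of 0.1 and 6 under median-of-ratios scaling. That scaling uses factors of 0.902 to 1.13, and under it separated genes with lane 4 above numbered 2 of 8 in the CD4 T cell list (3 as deposited), 4 of 7 in MHC class II (5) and 7 of 17 in the erythroid list (8).

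The range of a list is the log2 of its highest over its lowest library, and the cause of a change under another setting was not tested. Under median-of-ratios scaling the neutrophil range was 2.83, against 2.51 as deposited. Without mitochondrial, haemoglobin and immunoglobulin genes the B cell range was 1.33 and the plasma cell range 0.86. With the median over members in place of the sum, the range was 1.94 for neutrophil, 1.45 for CD8 T and NK cell, 1.04 for MHC class II, 1.04 for pancreas and 0.38 for stroma and endothelium genes. Without its most abundant member, the range was 0.74 for the CD4 T cell list, 1.34 for B cell, 2.35 for precursor B cell, 0.73 for monocyte and macrophage, 1.98 for erythroid and 3.47 for pancreas genes. Without members under 1 TPM on average the stroma and endothelium range was 1.28. Other settings were added after seeing the data. Without genes of at most 1000 bases the range was 1.21 for CD8 T and NK cell, 2.24 for precursor B cell and 2.07 for neutrophil genes. Without both Lck-Cre TRAIL 2 and floxed TRAIL 3 it was 0.4 for red pulp macrophage, 1.92 for neutrophil, 1.02 for granulocyte precursor, 1.26 for dendritic cell, 0.25 for stroma and endothelium and 1.07 for pancreas genes.

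Leaving out each library in turn gave ranges of 0.8 to 2.07 for the T cell, 0.5 to 1.12 for the CD4 T cell, 0.56 to 1.07 for the B cell, 0.63 to 1.23 for the monocyte and macrophage, 0.91 to 1.22 for the platelet, 0.64 to 1.15 for the mast cell, basophil and eosinophil and 0.56 to 0.81 for the cycling list, with the lowest value without floxed TRAIL 1 in each. It gave 0.47 to 1.11 for the plasma cell and 1.35 to 2.82 for the erythroid list, lowest without vehicle, and 0.98 to 1.86 for the dendritic cell list, lowest without Lck-Cre TRAIL 1. The neutrophil lane difference lay between -2.27 and -1.96 when 1 library was left out. It moved to -1.59 without genes of at most 1000 bases and to -1.27 as a median over members. The erythroid lane difference of -1.11 turned to 1.31 without haemoglobin and the other 2 gene classes, to 0.83 as a median over members and to 1.14 without short genes. The pancreas lane difference of 0.98 turned to -1.74 without Cela1 and to -0.09 without the near-identical pair. Pseudocounts of 0.1 and 5 and Spearman's rho were not run for markers, because orders of libraries replaced the correlations. Depth limits genes near or below 1 TPM, and intervals between animals cannot be had, since the labels do not say which libraries are separate animals.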
